A study of Mus musculus with 24 samples.

Results

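The Wnt genes examined here are the secreted Wnt ligands, their Frizzled and LRP receptors, the secreted inhibitors that bind either, and the intracellular genes that carry or report the signal. They were taken from a table of read counts per gene from whole mouse ovary by symbol (the Wnt, Fzd, Sfrp and Dkk families and 18 genes named singly, from Frzb and Lrp5 to Axin2 and Sp5) and by a minimum of 10 counts in at least 4 libraries. That rule used no comparison between groups. It found 46 of the 55487 genes in the table. Another 9 symbols matched but lay under the minimum, namely Dkk1, Dkk4, Sfrp5, Wnt1, Wnt3, Wnt3a, Wnt8a, Wnt8b and Wnt9b. Of the 46 genes, 45 also passed the filter on low counts used for testing. The exception was Wnt16.

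The ovaries came from mice that lose Nr5a1, the gene for steroidogenic factor 1 (SF-1, a nuclear receptor), through a Cre recombinase expressed from Amhr2, which encodes a receptor of anti-Müllerian hormone. The conditional knockout (cKO) animals carried floxed Nr5a1 on both alleles with the transgene (Nr5a1 f/f, Amhr2-cre Tg/+), and their littermate controls carried the same floxed alleles without it (Nr5a1 f/f, Amhr2-cre +/+). Ovaries were taken on embryonic day (ED) 17.5 and on postnatal days (PND) 1 and 4, with 4 libraries for each genotype at each age, 24 in all, and each library held RNA pooled from several mice of that age and genotype. Amhr2-cre acts in somatic cells that express Amhr2, so other cells of the ovary keep Nr5a1 as it was, and the RNA is that of all cells mixed. The PND4 control libraries carry the numbers 2 to 5 and the other groups 1 to 4. Library values below follow that order, with the controls before the cKO libraries wherever they are set against each other. A lower level in such bulk RNA cannot tell fewer cells of a type from less RNA per cell.

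Wnt ligands are lipid-modified proteins that act over short distances. In the canonical branch a ligand joins a Frizzled receptor to LRP5 or LRP6, which stops the Axin, APC and GSK3 beta complex from destroying beta-catenin, and beta-catenin then turns on target genes with TCF/LEF factors. R-spondins enhance this by binding LGR receptors and removing RNF43 and ZNRF3, the ligases that degrade Frizzled. Other ligands, WNT5A among them, act mostly through ROR receptors without beta-catenin. In the fetal mouse ovary Rspo1 and Wnt4 are known as genes that hold the ovarian fate against the testis fate.

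The depth was 11361365 to 13641263 counts per library. Levels are given as CPM, counts scaled to the library total after TMM normalization. Each comparison between genotypes was a contrast of 1 model over all 24 libraries, and a gene was called higher or lower at an adjusted p under 0.05 over the 17435 genes tested. Fold changes are log2, cKO over control, with their standard error (SE). The labels describe the replicates as separate pools, so p values measure the spread between these pools. They also number the libraries 1 to 24 in sets of 6 that each hold 1 library of every group, without saying what a set shares.

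1 library stood apart from its label. ED17.5 cKO replicate 3 held 112 CPM of 4 Y-linked transcripts summed, against 6.32 CPM in ED17.5 cKO replicate 1, 0.164 to 1.64 CPM in the remaining 6 of that age and at most 0.174 CPM at PND1 and PND4. Its summed level of 6 Sertoli cell markers was 510 CPM (against 11.3 to 16.1 CPM in the 7 others of its age) and of 6 fetal Leydig cell markers 1377 CPM (27.4 to 121 CPM). Nr5a1 stood at 165 CPM in this library and at 62.1 to 73.1 CPM in the other 3 ED17.5 cKO libraries, with 120.02 to 167 CPM in the controls, so the library labelled ED17.5 cKO replicate 3 did not show the loss. At PND1 Nr5a1 was at 62.7 to 74.8 CPM in cKO and 113 to 152 CPM in controls, and at PND4 at 62.5 to 82.3 and 132 to 149 CPM. Its log2 fold change was -0.70 ± 0.23 (adjusted p = 0.0294), -0.98 ± 0.23 (0.00301) and -0.99 ± 0.23 (0.00315) at ED17.5, PND1 and PND4. Leaving that library out changed none of the ED17.5 calls among the Wnt genes: 11 higher and 7 lower were called with it, and the same genes without it, where 20.6% of all genes were called (9.45% higher, 11.2% lower). Leaving out ED17.5 cKO replicate 1 as well, an alternative chosen after seeing the data, left 16 calls, without Tcf7l1 (0.40, adjusted p = 0.0546) and Wnt5b (0.27, 0.0932).

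Cell type markers moved with genotype at all ages, and every count below stands beside them. Of 8 pregranulosa and granulosa markers, a list that holds Lgr5 and Fst, 8 were lower at ED17.5, 7 at PND1 and 6 at PND4, with summed levels of 1407 to 1892 CPM in controls and 599 to 865 CPM in cKO at ED17.5, 1203 to 1497 and 714 to 810 CPM at PND1, and 933 to 1112 and 517 to 660 CPM at PND4. Of 8 stroma and theca markers 8, 8 and 5 were higher, at 5926 to 9510 CPM in controls and 11589 to 12454 CPM in cKO at ED17.5, 4159 to 4489 and 9817 to 11295 CPM at PND1, and 4081 to 7023 and 11659 to 12199 CPM at PND4. Of 6 endothelial markers 4, 6 and 6 were higher (388 to 421 CPM in controls and 526 to 589 CPM in cKO at ED17.5, 249 to 288 and 464 to 477 CPM at PND1, 252 to 333 and 473 to 561 CPM at PND4). Of 6 macrophage markers 5, 5 and 6 were higher, at 39.9 to 132 CPM in controls and 112 to 199.8 CPM in cKO over the ages. Of 6 surface epithelium markers 3 were lower at each age and 2 higher at PND1 and PND4. Their summed level was 608 to 826 CPM in controls and 404 to 564 CPM in cKO at ED17.5. It was 825 to 883 and 595 to 646 CPM at PND1, and 676 to 926 and 343 to 796 CPM at PND4, where the ranges overlapped. Of 6 smooth muscle and pericyte markers 2, 6 and 4 were higher. Of 6 germ cell markers 2 were lower at ED17.5. Their summed ranges in the genotypes overlapped at all 3 ages, with 630 to 838 CPM in controls and 615 to 861 CPM in cKO at ED17.5. None of the markers of these lists was at 0 in any library. The part of these markers in the changes of the Wnt genes was not tested.

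Among the 45 Wnt genes tested, 18 were called at ED17.5 (11 higher, 7 lower), 24 at PND1 (15 and 9) and 21 at PND4 (11 and 10). Over all genes tested 23.2% were called at ED17.5, 24.0% at PND1 and 22.9% at PND4. By direction, 11.1%, 13.2% and 12.6% of all genes were higher, and 12.0%, 10.7% and 10.3% lower. The 4 cKO libraries lay wholly above or wholly below the 4 controls for 17, 28 and 20 of the 45 Wnt genes, against 23.8%, 27.7% and 24.0% of all genes. The median log2 fold change of the Wnt genes was 0.04, 0.35 and 0.10, and that of all genes -0.01, -0.02 and -0.00. Of the 45, 7 Wnt genes were lower at all 3 ages (Axin2, Fzd5, Lef1, Sp5, Tcf7, Wnt2b and Wnt6), as were 4.63% of all genes tested, and 9 were higher at all 3 ages (Dkk3, Frzb, Fzd1, Fzd2, Fzd4, Sfrp1, Tcf7l1, Wnt5a and Wnt5b), as were 5.57% of all genes. Of the remaining Wnt genes, 11 were called at 1 or 2 ages, 18 at none, and none in both directions.

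**Figure D1:**
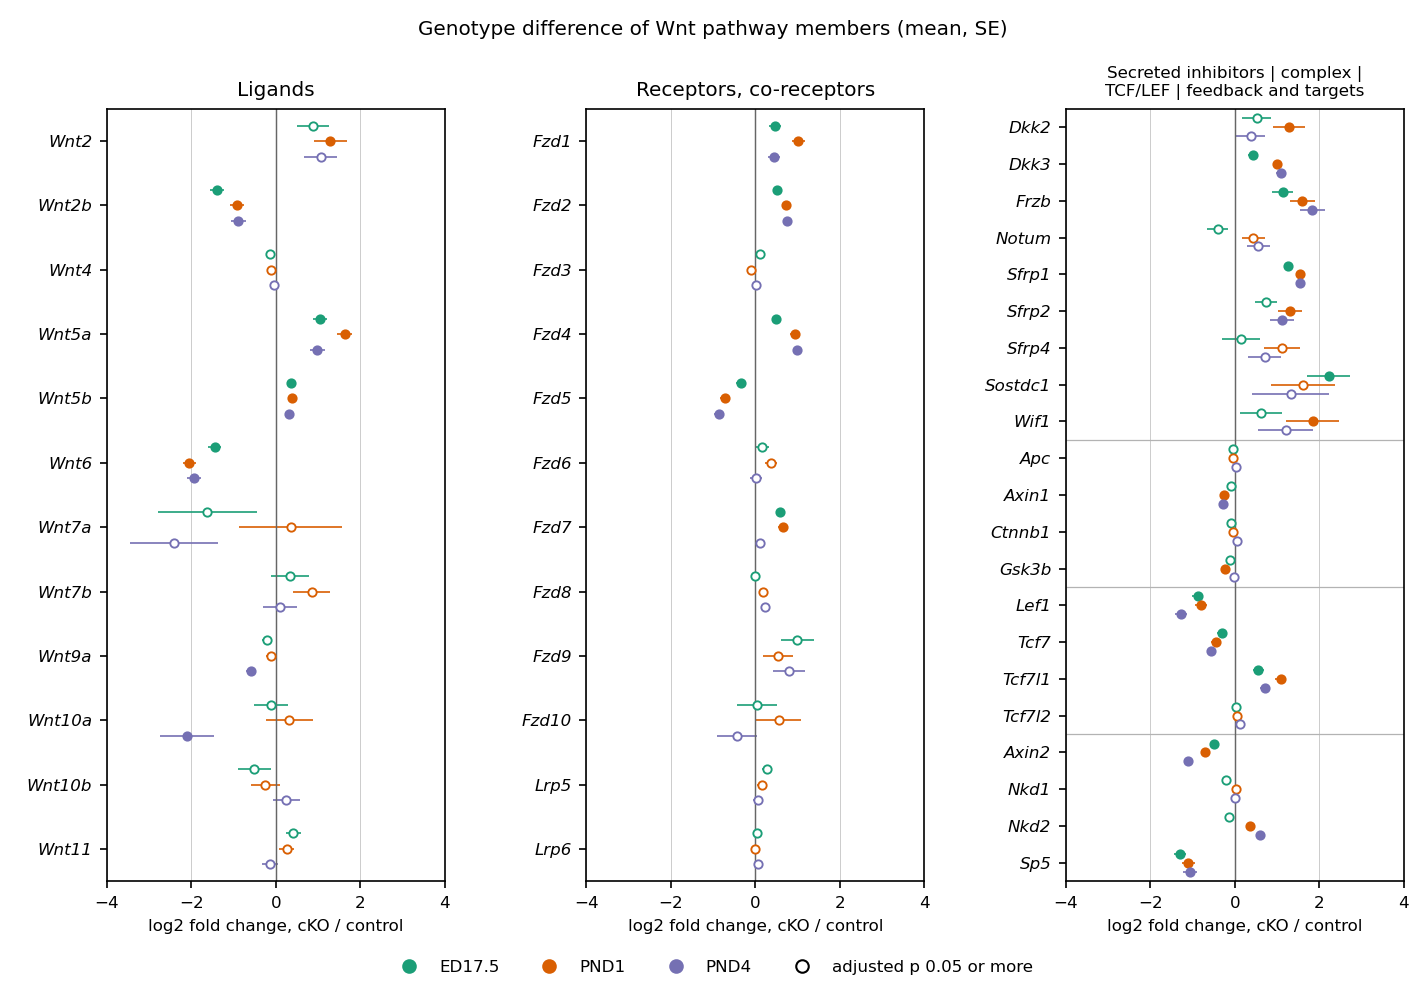
Log2 fold change of cKO over control (x axis, bars: SE) for the 45 Wnt genes tested, grouped by role, at ED17.5, PND1 and PND4. All secreted inhibitors that were called lie to the right of 0, while Wnt6, Wnt2b, Sp5, Lef1 and Axin2 lie to the left at all 3 ages.

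Sequences upstream of the start are shown for the 3 genes on which the account of the ligands and targets turns, because Axin2 and Sp5 are textbook beta-catenin targets and Wnt6 was the ligand with the highest level per length in control ovaries. Each is the 250 bases before the RefSeq start in build GRCm38.p6, on the plus strand, and none overlaps an annotated exon. Capitals mark matches to the TCF/LEF core letters CTTTGAT or CTTTGTT, or to CAAGGTC or CAAGGCC, core letters of NR5A sites, searched on both strands. A match read on the minus strand appears as its reverse complement.
Sp5 (chr2:70474673-70474922): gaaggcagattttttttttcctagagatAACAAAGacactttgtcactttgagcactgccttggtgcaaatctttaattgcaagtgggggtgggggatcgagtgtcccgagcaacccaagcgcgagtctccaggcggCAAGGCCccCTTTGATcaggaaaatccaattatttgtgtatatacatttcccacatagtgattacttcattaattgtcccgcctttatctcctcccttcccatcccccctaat
Axin2 (chr11:108920099-108920348): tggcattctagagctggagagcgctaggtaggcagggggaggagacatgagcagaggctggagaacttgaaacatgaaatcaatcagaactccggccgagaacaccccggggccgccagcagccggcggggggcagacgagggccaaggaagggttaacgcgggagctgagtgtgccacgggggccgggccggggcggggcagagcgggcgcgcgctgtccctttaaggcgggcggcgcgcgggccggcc
Wnt6 (chr1:74771642-74771891): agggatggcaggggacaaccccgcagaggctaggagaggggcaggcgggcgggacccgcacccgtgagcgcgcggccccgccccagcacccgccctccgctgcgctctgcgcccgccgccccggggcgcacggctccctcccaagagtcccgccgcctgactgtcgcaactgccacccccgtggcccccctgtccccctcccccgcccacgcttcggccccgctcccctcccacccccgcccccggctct
The Sp5 window held CTTTGAT with its first base 104 bases before the start, CTTTGTT on the minus strand at 222 and CAAGGCC at 113, while the Axin2 and Wnt6 windows held none of the 4. RefSeq gave promoter windows for 30 of the 46 Wnt genes. Of these, 5 held a TCF/LEF core (Fzd7, Sp5, Tcf7l2, Wnt11 and Wnt5b), each in 1 of the 39 windows of the 30 genes, against 9.21% of all 27025 genes with a window and 8.06% of all 32851 windows of the same length. Among the 7 genes lower at all 3 ages, all with a window, 1 held the core (Sp5). Either CAAGGTC or CAAGGCC stood in the windows of 2 Wnt genes, Sp5 and Wnt5b, and in those of 9.4% of all genes (8.28% of all windows). These matches are letters in a window and were not tested as sites.

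Of the 12 ligands tested, 2 were higher and 2 lower at ED17.5. The counts were 3 higher and 2 lower for PND1, and 2 higher and 4 lower for PND4. Among all genes 11.1%, 13.2% and 12.6% were higher and 12.0%, 10.7% and 10.3% lower at the 3 ages. Wnt6 and Wnt2b fell at every age, Wnt5a and Wnt5b rose at every age, and Wnt4 was called at none. Set per kilobase of exon, Wnt6 was at 100.2 ± 12.2 CPM per kb (SD, n = 4) in ED17.5 controls, 113 ± 10.2 at PND1 and 76.3 ± 7.62 at PND4, above every other ligand in every control library. Wnt2b (36.3, 22.4 and 17.1 CPM per kb) and Wnt4 (33.9, 21.9 and 18.5) followed, and their ranges overlapped each other at each age. Wnt5b, Wnt5a and Wnt9a came next at 3.51 to 12.7 CPM per kb, then Wnt11 at 2.35 to 3.62 and Wnt7a at 0.363 to 2.79. The Wnt7a mean in PND4 controls rests on replicate 3, without which it was 0.300 CPM per kb, among the levels of the ligands that come last. The means of Wnt2, Wnt7b, Wnt10a and Wnt10b were 0.131 to 0.483 CPM per kb in controls.

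**Figure D2:**
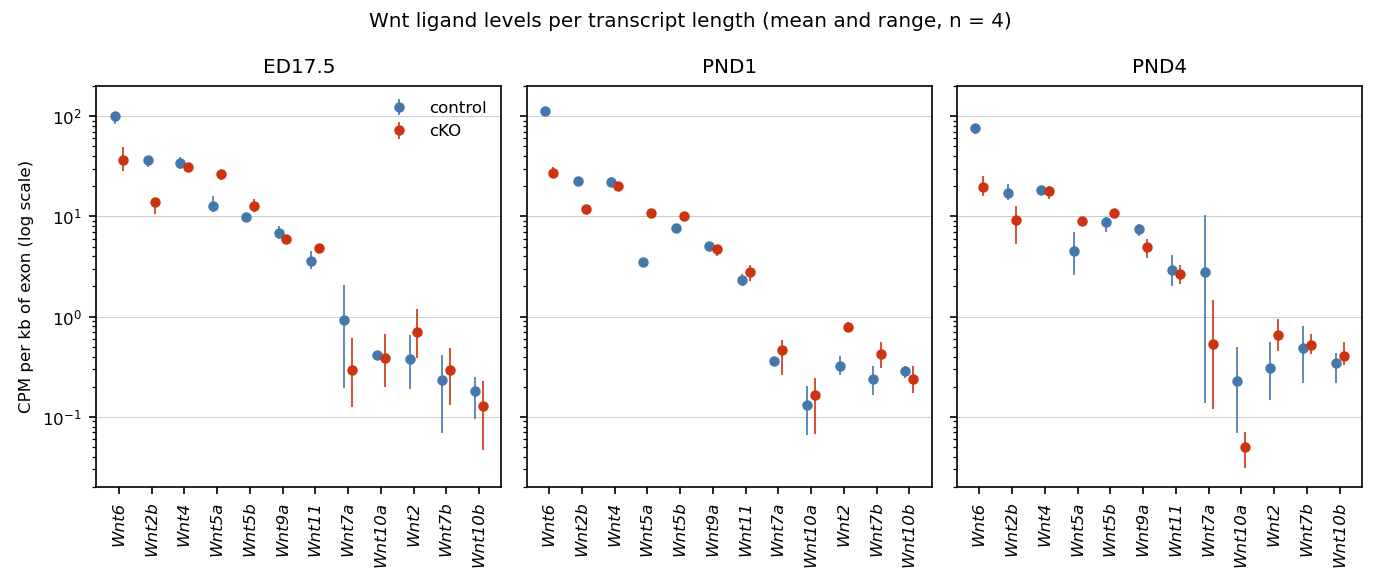
Mean level of the 12 ligands tested in CPM per kilobase of exon (y axis, log scale, bars: lowest to highest library, n = 4) in control and cKO ovaries at each age. Wnt6 is the highest in controls at every age, and its cKO level lies nearer those of Wnt2b and Wnt4.

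Wnt6 (ENSMUSG00000033227, GRCm38 chr1:74771892-74785322) encodes a ligand of the canonical branch that is expressed in many epithelia. Its level at ED17.5 was 239, 216, 183 and 240.0 CPM in the controls and 87.4, 62.1, 108 and 65.6 CPM in cKO. At PND1 the controls held 235, 222, 266 and 266 CPM and the cKO libraries 68.9, 58.9, 58.1 and 53.5 CPM. At PND4 the values were 144, 166, 183 and 176 CPM in controls and 55.9, 45.0, 38.0 and 35.3 CPM in cKO. Every cKO library lay below every control of its age, and the highest at ED17.5 was replicate 3, the library that stood apart. The log2 fold change was -1.44 ± 0.15, -2.05 ± 0.16 and -1.94 ± 0.16 (adjusted p = 6.10e-07, 3.89e-09 and 1.01e-08), so cKO ovaries held 36.8%, 24.2% and 26.0% of the control mean. Without ED17.5 cKO replicate 3 the value at ED17.5 was -1.62.

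Wnt2b (ENSMUSG00000027840, GRCm38 chr3:104945272-104961921), also a canonical ligand, was at 131, 162, 161 and 157 CPM in ED17.5 controls and 64.0, 62.7, 44.6 and 60.9 CPM in cKO. The PND1 level was 90.1, 94.6, 89.9 and 101 CPM in controls and 47.1, 51.5, 48.5 and 51.4 CPM in cKO, and that at PND4 61.5, 66.4, 70.7 and 88.9 against 22.2, 41.9, 53.6 and 37.9 CPM. The groups did not overlap at any age. The change was -1.39 ± 0.17, -0.92 ± 0.17 and -0.88 ± 0.17 (adjusted p = 3.60e-06, 3.01e-04 and 6.23e-04).

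Wnt4, the ligand known for its part in early ovary formation, showed overlapping groups at all 3 ages. Its ED17.5 values were 140.4, 139, 125 and 164 CPM in controls and 126, 142, 119 and 132 CPM in cKO. At PND1 they were 82.3, 89.1, 92.7 and 103 against 85.7, 84.9, 87.9 and 80.7 CPM, and at PND4 77.2, 79.1, 81.3 and 73.1 against 62.9, 84.6, 81.3 and 73.3 CPM. The log2 fold change was -0.13 ± 0.08, -0.11 ± 0.09 and -0.04 ± 0.09 (adjusted p = 0.291, 0.384 and 0.804), which does not show that the level was unaltered.

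Wnt5a (ENSMUSG00000021994, GRCm38 chr14:28504750-28527448), the main ligand of the beta-catenin-independent branch, moved the other way. ED17.5 controls held 99.9, 86.6, 125 and 86.0 CPM and cKO libraries 203, 182, 229 and 209 CPM. PND1 controls held 28.0, 26.2, 27.2 and 28.3 CPM and cKO libraries 85.7, 87.9, 81.8 and 84.3 CPM, and at PND4 the values were 33.2, 55.1, 34.0 and 20.3 against 72.0, 70.9, 69.5 and 71.1 CPM. All cKO libraries lay above all controls of their age, and PND4 control replicate 3 was the highest of its group. Wnt5a rose by 1.05 ± 0.17, 1.63 ± 0.18 and 0.99 ± 0.18 on the log2 scale (adjusted p = 1.07e-04, 7.94e-07 and 2.93e-04).

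Wnt5b, its close relative, rose less. It was at 28.8, 25.0, 26.6 and 24.7 CPM in ED17.5 controls and 39.6, 33.6, 33.2 and 29.6 CPM in cKO, at 20.9, 19.7, 22.4 and 19.3 against 29.5, 26.8, 25.9 and 25.3 CPM at PND1, and at 24.5, 23.5, 26.3 and 18.4 against 29.6, 27.8, 28.8 and 29.0 CPM at PND4. The groups did not overlap, and the change was 0.37 ± 0.10, 0.38 ± 0.10 and 0.31 ± 0.10 (adjusted p = 0.00598, 0.00443 and 0.0199). The PND4 call did not pass without PND4 control replicate 5 (0.22, adjusted p = 0.108) or without PND4 cKO replicate 4 (0.30, 0.054).

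The remaining ligands tested were called at 1 age or at none. Wnt2 was at 0.904, 0.766, 0.666 and 0.584 CPM in PND1 controls and 1.67, 1.83, 1.71 and 1.99 CPM in cKO, which did not overlap (1.29 ± 0.39, adjusted p = 0.0151). At ED17.5 its values were 0.767, 0.737, 1.48 and 0.428 CPM in controls and 2.67, 1.69, 1.11 and 0.876 CPM in cKO (0.88 ± 0.38, 0.102), and at PND4 0.330, 1.25, 0.515 and 0.699 against 1.02, 1.76, 2.15 and 1.04 CPM (1.07 ± 0.40, 0.0535). The groups overlapped at both. Without ED17.5 control replicate 3, Wnt2 was called at ED17.5 (1.27, 0.0263), and it was called at PND4 without PND4 control replicate 3 (1.53, 0.0122), cKO replicate 1 (1.21, 0.0356) or cKO replicate 4 (1.18, 0.0475).

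Wnt9a was called at PND4 alone, at 21.2, 23.9, 27.7 and 26.9 CPM in controls and 13.0, 20.0, 16.7 and 17.0 CPM in cKO, without overlap (-0.58 ± 0.12, adjusted p = 7.77e-04). The difference between ages was not past the threshold for Wnt9a in any of the 3 contrasts of genotype effects. Wnt10a was lower at PND4 at under 1 CPM on average, with 0.413, 0.440, 0.172 and 1.22 CPM in controls and 0.0785, 0.0764, 0.166 and 0.174 CPM in cKO (-2.10 ± 0.63, 0.0168). These groups overlapped, and without PND4 control replicate 5, the highest, the change was -1.43 with an adjusted p of 0.14. Wnt7b, Wnt10b and Wnt11 were called at no age.

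Wnt7a was uneven within groups. It stood at 1.82, 32.5, 0.600 and 0.437 CPM in PND4 controls, where replicate 3 was far above the others, and at 4.63, 0.382, 0.829 and 0.871 CPM in cKO, and it was called at no age. Of the 6 oviduct and mesonephric duct markers, the same control library was the highest of its group for 4: Pax2 at 8.00 CPM (0.0874 to 0.661 in the other 3), Cdh16 at 20.6 (6.17 to 7.68), Pax8 at 19.7 (9.69 to 11.7) and Foxj1 at 6.53 (3.52 to 4.98). For Ovgp1, at 2.35 CPM (1.37 to 3.06), and Emx2, at 89.3 CPM (85.8 to 102), it lay within the range of the others. The summed level of the 6 in the PND4 controls was 111 to 146 CPM, and their part in the Wnt7a value was not tested. Wnt16 gave 122 counts in the whole series, with 25 in ED17.5 control replicate 3, 22 in PND4 control replicate 3, 19 in PND4 cKO replicate 1 and 0 to 10 in each of the others.

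**Figure D3:**
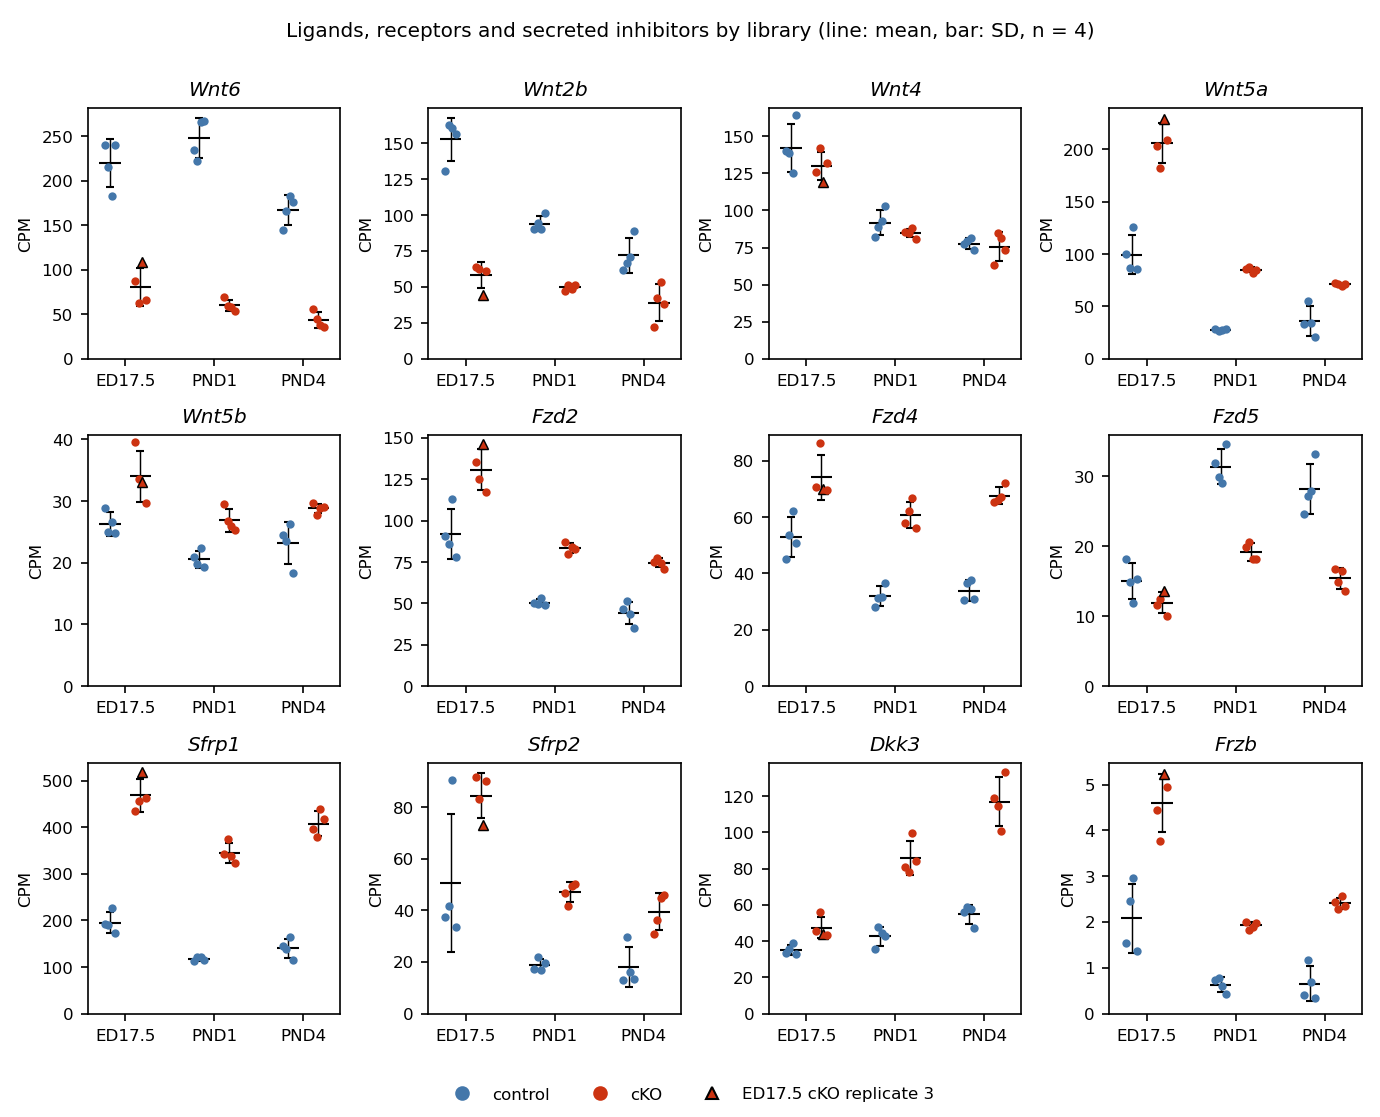
CPM of ligands, receptors and inhibitors in each library (points; triangle: ED17.5 cKO replicate 3; line and bar: mean and SD, n = 4) by age and genotype. Wnt6 and Wnt2b lie lower and Wnt5a and Sfrp1 higher in cKO at each age without overlap, and Wnt4 overlaps.

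Of the 12 receptors and co-receptors tested, 4 were higher and 1 lower at ED17.5 and at PND1. At PND4 3 were higher and 1 lower. The shares of all genes were 11.1%, 13.2% and 12.6% higher and 12.0%, 10.7% and 10.3% lower at the 3 ages. Fzd1, Fzd2 and Fzd4 rose at all ages, Fzd7 at ED17.5 and PND1, and Fzd5 was the receptor that fell. Frizzleds are seven-pass receptors that bind Wnt through a cysteine-rich domain, and FZD4 also binds norrin, a ligand of vessel growth. Fzd4 was at 45.1, 53.7, 62.3 and 50.8 CPM in ED17.5 controls and 70.8, 86.1, 70.0 and 69.6 CPM in cKO. At PND1 it was at 28.0, 31.2, 31.5 and 36.6 against 57.8, 62.1, 66.6 and 56.2 CPM, and at PND4 at 30.6, 36.5, 37.6 and 30.8 against 65.3, 66.0, 67.3 and 71.9 CPM. The groups did not overlap, and the change was 0.48 ± 0.10, 0.93 ± 0.10 and 1.00 ± 0.10 (adjusted p = 5.16e-04, 9.50e-08 and 3.64e-08).

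Fzd2 was at 90.8, 85.6, 113 and 78.2 CPM in ED17.5 controls and 135, 125, 146 and 117 CPM in cKO, then 49.9, 49.5, 53.4 and 49.0 against 87.3, 79.8, 84.2 and 82.7 CPM at PND1, and 46.3, 51.2, 43.6 and 35.0 against 74.9, 77.7, 74.4 and 71.0 CPM at PND4. Again no cKO library lay within the control range of its age, with changes of 0.51 ± 0.10, 0.73 ± 0.10 and 0.76 ± 0.10 (adjusted p = 3.18e-04, 3.53e-06 and 2.65e-06). Fzd1 was at 51.3, 43.4, 58.1 and 42.8 CPM in ED17.5 controls and 68.1, 80.4, 60.9 and 63.1 CPM in cKO, 27.3, 24.2, 26.0 and 29.8 against 58.7, 51.4, 54.4 and 53.2 CPM at PND1, and 34.2, 50.4, 37.0 and 24.1 against 49.4, 48.1, 49.7 and 52.9 CPM at PND4. It rose by 0.48 ± 0.14, 1.02 ± 0.15 and 0.45 ± 0.14 (adjusted p = 0.0155, 9.88e-06 and 0.0235), but the PND4 groups overlapped through control replicate 3. At ED17.5 it did not pass on leaving out control replicate 2, control replicate 4 or cKO replicate 2 (adjusted p = 0.0559, 0.0575 and 0.0627), and likewise at PND4 for control replicate 2, control replicate 5 or cKO replicate 4 (0.0646, 0.0911 and 0.0726).

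Fzd7 rose at ED17.5 (0.59 ± 0.10, adjusted p = 7.64e-05) and PND1 (0.65 ± 0.10, 1.98e-05) without overlap. At PND4 it was at 60.5, 56.2, 61.5 and 45.8 CPM in controls and 66.1, 64.7, 50.1 and 60.8 CPM in cKO, which overlapped (0.11 ± 0.10, 0.483). Fzd5 was at 18.2, 14.8, 11.8 and 15.3 CPM in ED17.5 controls and 11.7, 12.4, 13.5 and 9.96 CPM in cKO, an overlap with a change of -0.34 ± 0.12 (adjusted p = 0.043) that was lost on leaving out any 1 of control replicates 1, 2 and 4 and cKO replicates 1, 2 and 4, with values of -0.36 to -0.24 and adjusted p of 0.0633 to 0.183. At PND1 Fzd5 was at 32.0, 29.9, 29.1 and 34.6 against 19.9, 20.6, 18.1 and 18.2 CPM (-0.71 ± 0.12, 3.90e-05), and at PND4 at 24.5, 27.2, 27.9 and 33.1 against 16.8, 14.9, 16.5 and 13.6 CPM (-0.87 ± 0.12, 3.84e-06), without overlap at either age. An antisense gene shares 17.8% of its exon length. The library kit marks strand, but the strand setting of the counting is not given in the sources used here, so reads of the pair cannot be told apart. Lrp5 and Lrp6, the co-receptors, were called at no age and lay between -0.02 and 0.28 on the log2 scale, and Fzd3, Fzd6, Fzd8, Fzd9 and Fzd10 were called at none.

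Of the 9 secreted inhibitors tested, 4 rose at ED17.5, 6 at PND1 and 4 at PND4. None fell by edgeR's test at an adjusted or an unadjusted p under 0.05. Among all genes 11.1%, 13.2% and 12.6% were higher and 12.0%, 10.7% and 10.3% lower at the adjusted threshold. At such shares few of 9 genes would be lower. The share of all genes at the unadjusted threshold was not taken. Their median change was 0.62, 1.31 and 1.12 on the log2 scale. DKK proteins occupy LRP5 and LRP6, while SFRP proteins, FRZB and WIF1 mostly bind the ligands themselves.

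Sfrp1 (ENSMUSG00000031548, GRCm38 chr8:23411502-23449632) was the inhibitor with the highest level per kilobase of exon in each group, at 44.7, 26.9 and 32.1 CPM per kb on average in ED17.5, PND1 and PND4 controls. It was at 192, 190.0, 227 and 173 CPM in ED17.5 controls and 436, 457, 519 and 464 CPM in cKO. At PND1 the values were 113, 121, 121 and 115 against 342, 374, 339 and 323 CPM, and at PND4 144, 138, 165 and 115 against 396, 379, 439.9 and 418 CPM. Every cKO library was above every control, and the change was 1.26 ± 0.09, 1.55 ± 0.09 and 1.54 ± 0.09 (adjusted p = 2.84e-10, 1.47e-11 and 6.30e-12).

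Dkk3, which despite its name is not a clear LRP antagonist, was at 33.3, 35.4, 38.9 and 32.7 CPM in ED17.5 controls and 45.8, 55.8, 43.8 and 43.6 CPM in cKO. Its PND1 values were 35.4, 47.8, 44.6 and 42.9 against 81.1, 78.3, 99.6 and 84.0 CPM and its PND4 values 56.1, 58.7, 57.6 and 47.2 against 119, 115, 101 and 133 CPM. The groups did not overlap, and the change was 0.43 ± 0.11, 1.01 ± 0.10 and 1.09 ± 0.10 (adjusted p = 0.00394, 6.14e-08 and 1.70e-08). Frzb, at lower levels, was at 1.53, 2.46, 2.96 and 1.37 CPM in ED17.5 controls and 4.45, 3.77, 5.22 and 4.94 CPM in cKO, 0.739, 0.766, 0.592 and 0.417 against 2.01, 1.83, 1.88 and 1.99 CPM at PND1, and 0.413, 1.17, 0.686 and 0.350 against 2.43, 2.29, 2.57 and 2.35 CPM at PND4. It rose by 1.14 ± 0.24, 1.60 ± 0.30 and 1.83 ± 0.29 (0.00122, 2.32e-04 and 3.82e-05), also without overlap.

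Sfrp2 was at 37.4, 41.6, 90.7 and 33.5 CPM in ED17.5 controls, with replicate 3 within the cKO range, and at 91.9, 83.2, 73.0 and 90.2 CPM in cKO. It did not pass there (0.73 ± 0.26, adjusted p = 0.0507) and did without control replicate 3 (1.17, 0.000243). That control library was also the highest of its group for the summed stroma and theca markers, at 9510 CPM against 5926 to 6454 CPM in the other 3. At PND1 Sfrp2 was at 17.3, 22.0, 16.8 and 19.7 against 46.7, 41.7, 49.4 and 50.4 CPM (1.31 ± 0.28, 0.00152) and at PND4 at 12.9, 29.7, 16.0 and 13.5 against 31.0, 36.3, 44.8 and 45.9 CPM (1.12 ± 0.28, 0.00633), higher in all cKO libraries. An antisense gene shares 16.1% of the exon length of Sfrp2.

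Sostdc1, which inhibits both Wnt and bone morphogenetic protein signals, was at 1.38, 1.07, 5.14 and 3.00 CPM in ED17.5 controls and 6.40, 7.00, 30.7 and 5.66 CPM in cKO, where the library that stood apart was far above the rest. Its change of 2.23 ± 0.51 (adjusted p = 0.0027) became 1.25 ± 0.37 (0.0168) without that library. At PND1 it was at 0.411, 0.511, 0.444 and 0.167 against 1.50, 1.08, 1.54 and 0.735 CPM (1.63 ± 0.76, 0.134) and at PND4 at 0.413, 0.367, 0 and 0.175 against 0.550, 0.687, 0.497 and 0.784 CPM (1.33 ± 0.91, 0.341), not called though the groups did not overlap. Leaving out ED17.5 cKO replicate 3, which enters the shared estimate of the spread, gave a call at PND1 (1.62, 0.0223).

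Dkk2 rose at PND1, from 1.64, 3.40, 1.33 and 2.00 CPM in controls to 5.60, 4.16, 4.28 and 6.32 CPM in cKO (1.29 ± 0.37, adjusted p = 0.0125). At ED17.5 the values were 2.15, 3.36, 8.10 and 3.08 CPM in controls and 4.86, 9.39, 4.04 and 5.66 CPM in cKO, and at PND4 5.20, 7.78, 4.72 and 3.15 against 7.70, 5.88, 6.38 and 7.23 CPM, both overlapping. It was called at ED17.5 without control replicate 3 (1.06, 0.0161). Wif1 rose at PND1 at under 1 CPM on average (1.84 ± 0.62, 0.0321), a call lost on leaving out any 1 of control replicates 1, 2 and 3 and cKO replicates 1 and 3, with values of 1.61 to 1.76 and adjusted p of 0.0765 to 0.0896. Without PND4 cKO replicate 2, the library with no Wif1 count, it passed at PND4 (1.61, 0.0323). Wif1 met the count minimum mostly through cKO libraries, so its rise, 1 of the 6 at PND1, is not independent of how it was picked. Sfrp4 was called at no age (0.16 ± 0.45, 1.12 ± 0.43 and 0.71 ± 0.39), nor was Notum, an extracellular enzyme that strips the lipid from Wnt (-0.41 ± 0.25, 0.44 ± 0.27 and 0.55 ± 0.27). Notumos on the opposite strand shares 29.4% of the exon length of Notum. Sfrp4 passed at PND1 without control replicate 2 (1.37, 0.0467), and Notum at ED17.5 without cKO replicate 2 (-0.73, 0.032) and at PND4 without control replicate 3 (0.87, 0.0245).

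Beta-catenin and the genes of its destruction complex moved little. Ctnnb1, beta-catenin itself, was at 1252, 1273, 1283 and 1264 CPM in ED17.5 controls and 1185, 1159, 1269.9 and 1124 CPM in cKO. At PND1 it was at 1075, 1120.0, 1183 and 1185 against 1133, 1101, 1145 and 1071 CPM, and at PND4 at 979, 1127, 1006 and 998 against 1053, 1039.6, 1056 and 1100.0 CPM. The groups overlapped at each age, with changes of -0.10 ± 0.05, -0.04 ± 0.05 and 0.05 ± 0.05 (adjusted p = 0.185, 0.686 and 0.577). RNA says nothing of the amount of beta-catenin protein, on which the pathway is known to act. Ulk4 on the other strand shares 14.6% of its exon length. Axin1, the scaffold of the complex, fell at PND1 (-0.25 ± 0.07, 0.0126) and PND4 (-0.27 ± 0.08, 0.00959), and Gsk3b, its kinase, at PND1 (-0.24 ± 0.05, 8.34e-04). The Axin1 call at PND1 was lost without control replicate 1 (-0.17, 0.0789) or cKO replicate 4 (-0.22, 0.0535). Apc was called at no age.

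TCF/LEF factors split by member at every age, with 1 of 4 higher and 2 lower. Over the ages 11.1% to 13.2% of all genes were higher and 10.3% to 12.0% lower. Lef1 (ENSMUSG00000027985, GRCm38 chr3:131110471-131224356), itself a known target of the pathway, was at 17.5, 18.3, 16.4 and 20.3 CPM in ED17.5 controls and 9.80, 10.5, 8.94 and 10.1 CPM in cKO. Its PND1 level was 12.9, 14.0, 13.4 and 13.3 against 6.77, 8.40, 9.32 and 6.40 CPM, and its PND4 level 9.33, 9.03, 12.4 and 11.5 against 3.53, 5.65, 4.23 and 4.09 CPM. No cKO library reached the control range of its age, and the change was -0.88 ± 0.13, -0.80 ± 0.14 and -1.27 ± 0.14 (adjusted p = 2.54e-05, 7.83e-05 and 3.44e-07). An antisense gene shares 13.8% of its exon length.

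Tcf7, which encodes TCF1, was at 43.6, 40.6, 40.7 and 43.6 CPM in ED17.5 controls and 31.8, 28.7, 46.5 and 29.0 CPM in cKO, where the library that stood apart was above all 4 controls. The change was -0.31 ± 0.11 (adjusted p = 0.0421) with it and -0.50 ± 0.08 (7.68e-05) without it. The call was lost on leaving out any 1 of control replicates 1, 2 and 4 and cKO replicates 1, 2 and 4, with values of -0.32 to -0.23 and adjusted p of 0.0665 to 0.167. At PND1 Tcf7 was at 57.3, 56.8, 60.0 and 59.6 against 40.4, 46.5, 43.0 and 40.7 CPM (-0.45 ± 0.11, 0.00248) and at PND4 at 40.2, 42.5, 42.5 and 44.1 against 32.4, 30.4, 28.7 and 23.7 CPM (-0.55 ± 0.11, 5.19e-04), without overlap. Tcf7l1, encoding TCF3, best known as a repressor, rose from 40.0, 35.0, 40.9 and 34.0 CPM in controls to 58.1, 43.6, 63.2 and 55.7 CPM in cKO at ED17.5, from 17.7, 23.0, 26.8 and 21.6 to 48.5, 40.5, 52.0 and 48.3 CPM at PND1 and from 25.8, 31.1, 34.0 and 25.0 to 50.0, 47.9, 52.6 and 39.6 CPM at PND4. Its groups did not overlap, with changes of 0.56 ± 0.13, 1.08 ± 0.13 and 0.71 ± 0.13 (0.00193, 7.03e-07 and 1.57e-04). Tcf7l2 was called at no age.

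Of the 4 feedback and target genes, Axin2 and Sp5 fell at every age, Nkd2 rose at PND1 and PND4, and Nkd1 was called at none. The shares of all genes were 10.3% to 12.0% lower and 11.1% to 13.2% higher over the ages. Axin2 (ENSMUSG00000000142, GRCm38 chr11:108920349-108950783), a feedback inhibitor widely read as a reporter of beta-catenin activity, was at 147, 142, 127 and 150.2 CPM in ED17.5 controls and 108, 108, 85.3 and 99.3 CPM in cKO. At PND1 the controls held 124, 141, 136 and 142 CPM and the cKO libraries 79.6, 89.1, 87.0 and 79.9 CPM, and at PND4 89.4, 93.5, 98.5 and 116 against 40.4, 45.0, 47.8 and 52.0 CPM. The groups did not overlap. Axin2 stood at 70.7%, 61.7% and 46.6% of the control mean, a change of -0.50 ± 0.09, -0.70 ± 0.09 and -1.10 ± 0.09 (adjusted p = 1.19e-04, 1.14e-06 and 1.47e-09).

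Sp5 (ENSMUSG00000075304, GRCm38 chr2:70474923-70477729), a zinc finger repressor induced by beta-catenin, was at 33.7, 32.8, 29.8 and 36.5 CPM in ED17.5 controls and 15.0, 12.9, 11.3 and 14.7 CPM in cKO. It was at 24.7, 22.0, 26.9 and 27.1 against 13.5, 11.5, 12.5 and 9.78 CPM at PND1 and at 11.3, 13.9, 17.6 and 16.5 against 4.55, 8.02, 8.70 and 7.23 CPM at PND4. All cKO libraries lay below all controls of their age, with changes of -1.30 ± 0.15, -1.10 ± 0.15 and -1.06 ± 0.16 (adjusted p = 5.78e-07, 4.60e-06 and 1.86e-05).

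Nkd1 and Nkd2 encode feedback inhibitors that act on Dishevelled. Nkd2 was at 21.7, 25.8, 27.3 and 28.4 CPM in PND1 controls and 33.4, 32.8, 34.9 and 31.5 CPM in cKO (0.36 ± 0.09, adjusted p = 0.00476), and at 23.7, 26.0, 24.8 and 20.9 against 35.6, 35.8, 33.7 and 39.1 CPM at PND4 (0.60 ± 0.09, 2.83e-05), while at ED17.5 the change was -0.13 ± 0.09 (0.349). Nkd1 lay at -0.21 ± 0.08, 0.02 ± 0.08 and -0.00 ± 0.08 (0.0625, 0.879 and 0.987).

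**Figure D4:**
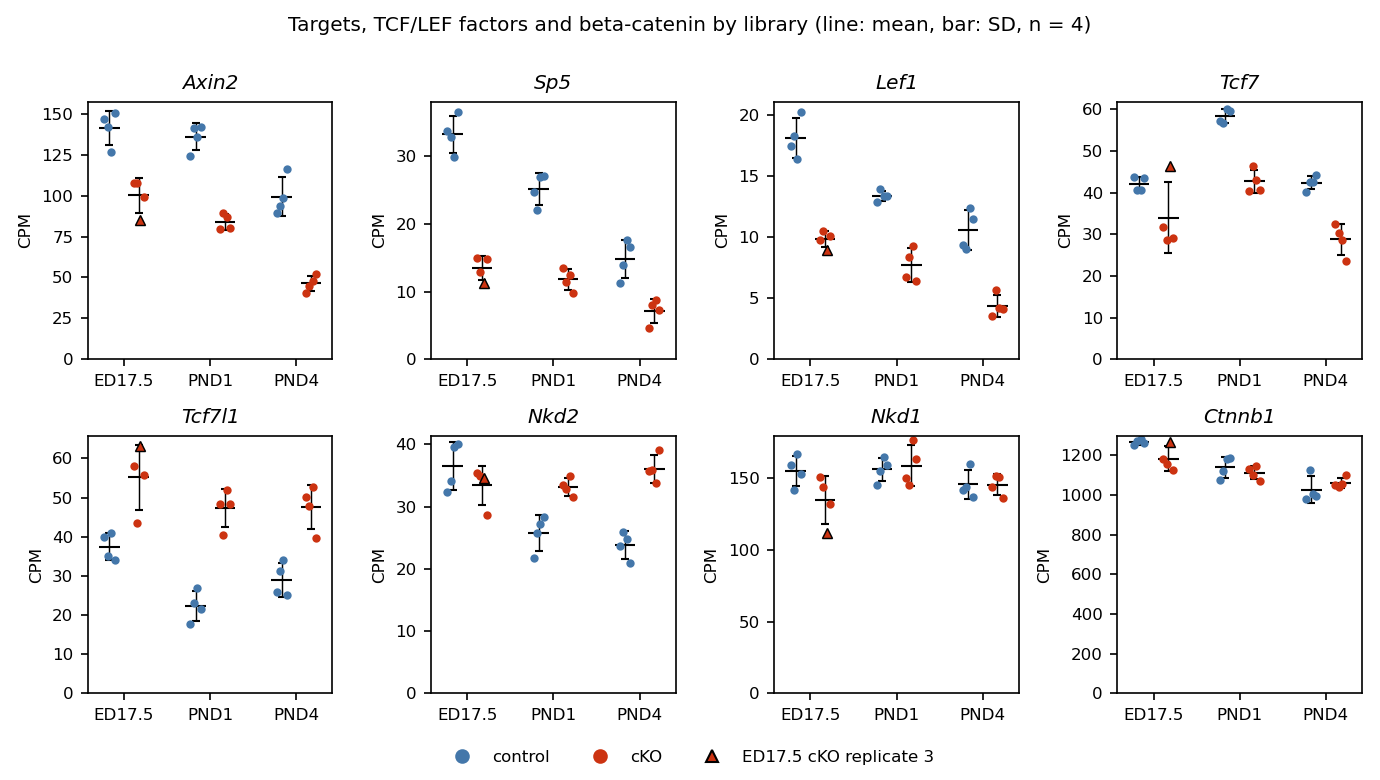
CPM of target genes, TCF/LEF factors and beta-catenin in each library (points; triangle: ED17.5 cKO replicate 3; line and bar: mean and SD, n = 4). Axin2, Sp5 and Lef1 are lower in every cKO library than in any control of its age, Tcf7l1 is higher, and Ctnnb1 overlaps.

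The effect of genotype differed between ages for few Wnt genes. Between PND1 and ED17.5 it differed for 1 (Dkk3, by 0.58 ± 0.15, adjusted p = 0.0414), where 1.86% of all genes did (1.20% higher, 0.665% lower). Between PND4 and ED17.5 it differed for 5, where 4.77% of all genes did (2.80% higher, 1.97% lower), and the split of all genes moved from 488 higher and 344 lower with TMM to 383 and 431 with DESeq2 size factors. The effect was more positive at PND4 for Nkd2 (0.72 ± 0.13, 0.00146), Dkk3 (0.66 ± 0.15, 0.00894) and Fzd4 (0.51 ± 0.14, 0.0289), and more negative for Axin2 (-0.60 ± 0.12, 0.00473) and Fzd7 (-0.48 ± 0.14, 0.0451). The same 5 were called with DESeq2 size factors. Between PND4 and PND1 none passed edgeR's test at an adjusted p under 0.05, 8 did at an unadjusted p under 0.05, and DESeq2 called 1. At the adjusted threshold 0.103% of all genes passed there (0.0344% higher, 0.0688% lower). The share of all genes at the unadjusted threshold was not taken, so the 8 have no background beside them. Leaving out 1 library ended 3 of these calls. Fzd7 did not pass without any 1 of ED17.5 control replicates 2, 3 and 4, ED17.5 cKO replicates 1, 3 and 4, PND4 control replicates 2, 3 and 4 and PND4 cKO replicates 3 and 4 (-0.50 to -0.40, adjusted p = 0.0628 to 0.105). Fzd4 did not pass without any 1 of ED17.5 control replicates 2 and 3, ED17.5 cKO replicates 1, 3 and 4, PND4 control replicates 2 and 5 and PND4 cKO replicates 2 and 4 (0.42 to 0.50, 0.0511 to 0.0767). Dkk3 between PND1 and ED17.5 did not pass without any 1 of ED17.5 control replicates 1, 2 and 3, ED17.5 cKO replicates 3 and 4, PND1 control replicates 1 and 4 and PND1 cKO replicates 1, 3 and 4 (0.50 to 0.60, 0.0511 to 0.109).

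Age moved the Wnt genes in control ovaries. From ED17.5 to PND1, 4 rose and 27 fell of 45, against 25.4% higher and 27.7% lower among all genes (53.0% in all), with a median of -0.40 for the Wnt genes and -0.04 for all genes. All 7 ligands called fell, as did 7 of 8 receptors and 7 of 8 inhibitors called. The log2 change was -1.86 ± 0.18 for Wnt5a, -0.87 ± 0.10 for Fzd2, -0.73 ± 0.09 for Sfrp1, -0.74 ± 0.10 for Fzd4 and -0.63 ± 0.09 for Wnt4 (adjusted p = 4.77e-08, 1.02e-07, 2.37e-07, 1.20e-06 and 1.35e-06). The 4 that rose were Fzd5 (1.06 ± 0.12, 6.28e-08), Axin1 (0.49 ± 0.07, 5.93e-06), Tcf7 (0.47 ± 0.11, 7.50e-04) and Dkk3 (0.28 ± 0.11, 0.0284). Cell type markers moved between these ages too. All 8 stroma and theca markers fell in controls (5926 to 9510 CPM summed at ED17.5, 4159 to 4489 at PND1), with 5 of 6 endothelial markers (388 to 421, then 249 to 288), 5 of 6 macrophage markers (90.2 to 132, then 39.9 to 56.5) and 4 of 6 erythroid markers (3442 to 6944, then 219 to 1635), while 4 of 6 germ cell markers rose (630.3 to 838, then 1357 to 1796 CPM). Their part in the changes of the Wnt genes was not tested. The Dkk3 call was lost without ED17.5 control replicate 1, 2 or 4 or PND1 control replicate 2 or 3 (0.23 to 0.27, adjusted p = 0.0595 to 0.105).

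From PND1 to PND4, 11 rose and 10 fell of 45, against 16.3% and 15.6% of all genes (31.9% in all). All 4 genes of beta-catenin and its complex fell: Gsk3b (-0.39 ± 0.05, adjusted p = 2.68e-06), Axin1 (-0.58 ± 0.07, 2.68e-06), Apc (-0.37 ± 0.06, 8.59e-05) and Ctnnb1 (-0.15 ± 0.05, 0.0282). The Ctnnb1 call was lost on leaving out any 1 of PND1 control replicates 3 and 4 and PND4 control replicates 2, 4 and 5 (-0.14 to -0.13, adjusted p = 0.068 to 0.0979). The target genes Axin2 (-0.45 ± 0.09, 2.95e-04) and Sp5 (-0.77 ± 0.15, 3.61e-04) also fell. Among those that rose were Fzd7 (0.59 ± 0.10, 8.65e-05), Wnt9a (0.56 ± 0.12, 8.91e-04), Dkk2 (1.33 ± 0.37, 0.00841), Dkk3 (0.36 ± 0.10, 0.00909) and Sfrp4 (1.48 ± 0.43, 0.0115). Wnt7a was called higher (2.95 ± 1.10, 0.047) through PND4 control replicate 3, without which it stood at -0.26 (0.854), and the call was also lost without any 1 of the 4 PND1 controls or ED17.5 cKO replicate 3 (2.91 to 2.99, adjusted p = 0.0539 to 0.0918). Ctnnb1 and Wnt7a were singled out here after their values were seen. In controls all 6 smooth muscle and pericyte markers rose from PND1 to PND4 (391 to 511 CPM summed, then 871 to 1346), as did 7 of 8 stroma and theca markers (4159 to 4489, then 4081 to 7023) and 5 of 6 macrophage markers (39.9 to 56.5, then 65.6 to 80.5). Germ cell markers fell for 2 of 6 (1357 to 1796, then 941 to 1282 CPM), and pregranulosa and granulosa markers for 3 of 8 (1203 to 1497, then 933 to 1112). Their part in the changes with age was not tested. The age and genotype comparisons share their control libraries.

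Beyond these genes, 53 other genes of the pathway were listed (R-spondins, their receptors, ROR receptors, planar polarity genes, Dishevelled and its partners, corepressors and further targets), of which 49 were tested. The list was made with earlier results of these data known. Of the 49, 14 were higher and 9 lower at ED17.5 (11 and 8 without the library that stood apart). The counts were 14 and 11 for PND1 and 11 and 11 for PND4, with medians of 0.06, 0.09 and 0.03. Over all genes tested 11.1% were higher and 12.0% lower at ED17.5 (9.45% and 11.2% without that library). The shares were 13.2% and 10.7% at PND1, and 12.6% and 10.3% at PND4. The R-spondin receptors included the changes of greatest size. Lgr5, a receptor for R-spondins and itself a known target, was at 127, 152, 141 and 159 CPM in ED17.5 controls and 36.7, 33.7, 28.3 and 31.1 CPM in cKO. At PND1 it was at 115, 139, 139 and 151 against 30.3, 26.9, 24.3 and 24.7 CPM, and at PND4 at 103, 118, 120.3 and 124 against 14.5, 17.0, 26.0 and 18.2 CPM. No library of one group reached the other, and the change was -2.16 ± 0.13, -2.36 ± 0.13 and -2.62 ± 0.13 (adjusted p = 1.29e-10, 1.47e-11 and 2.50e-12). Lgr5 is also a marker of pregranulosa cells and is 1 of the 8 markers of that list, as is Fst.

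Lgr6, its relative, went the other way. It was at 9.36, 11.7, 13.2 and 7.36 CPM in ED17.5 controls and 20.1, 16.9, 11.6 and 21.3 CPM in cKO, where the library that stood apart lay within the control range, at 1.81, 1.62, 2.29 and 2.00 against 12.0, 17.4, 19.5 and 16.1 CPM at PND1 and at 3.63, 4.18, 4.37 and 2.45 against 11.2, 15.7, 19.1 and 16.0 CPM at PND4. It rose by 0.74 ± 0.20, 3.06 ± 0.24 and 2.08 ± 0.22 (0.00894, 1.44e-09 and 1.61e-07), and the effect was larger at PND1 than at ED17.5 by 2.32 (adjusted p = 3.10e-04). Lgr4 was lower at each age, at -0.31 ± 0.08, -0.41 ± 0.08 and -0.26 ± 0.08 (0.00741, 4.43e-04 and 0.0226).

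Rspo1 was at 57.3, 58.7, 58.0 and 60.5 CPM in ED17.5 controls and 43.1, 49.4, 35.4 and 47.8 CPM in cKO, at 52.7, 64.9, 64.9 and 66.9 against 38.9, 45.9, 40.4 and 38.7 CPM at PND1, and at 53.8, 70.8, 69.8 and 69.3 against 23.8, 38.7, 44.8 and 43.3 CPM at PND4. The groups did not overlap, with changes of -0.42 ± 0.14, -0.61 ± 0.14 and -0.81 ± 0.14 (adjusted p = 0.0327, 0.00211 and 1.28e-04). Without ED17.5 cKO replicate 3, its lowest at that age, the ED17.5 change was -0.33 and did not pass (0.109). Rspo3 rose at PND1 (1.52 ± 0.37, 0.00363), from 1.56, 3.75, 1.70 and 2.50 to 8.02, 4.91, 6.58 and 7.65 CPM.

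Rnf43, which encodes a Frizzled-degrading ligase and is a known target, was at 45.3, 44.6, 44.0 and 51.2 CPM in ED17.5 controls and 20.0, 23.2, 16.4 and 18.6 CPM in cKO, 30.3, 36.3, 39.3 and 43.3 against 14.8, 14.9, 14.5 and 14.4 CPM at PND1, and 24.9, 31.3, 29.0 and 33.0 against 9.27, 8.55, 10.8 and 10.3 CPM at PND4. It was lower in every cKO library than in any control of its age, with changes of -1.24 ± 0.11, -1.35 ± 0.11 and -1.60 ± 0.12 (9.40e-09, 2.46e-09 and 2.67e-10). Its partner Znrf3 was called at PND1 (-0.40 ± 0.11, 0.00866) and lay at -0.03 ± 0.11 and -0.16 ± 0.11 at ED17.5 and PND4 (0.867 and 0.339).

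The ROR receptors, through which WNT5A acts, rose with Wnt5a at all 3 ages. Ror2 was at 28.8, 22.9, 27.3 and 24.3 CPM in ED17.5 controls and 57.8, 42.1, 59.7 and 43.8 CPM in cKO, 13.8, 14.5, 16.9 and 11.0 against 36.9, 38.5, 43.0 and 43.8 CPM at PND1, and 26.9, 24.0, 29.2 and 12.1 against 49.3, 47.4, 46.4 and 44.2 CPM at PND4, without overlap (0.98 ± 0.18, 1.53 ± 0.19 and 1.02 ± 0.18, adjusted p = 2.75e-04, 1.49e-06 and 1.60e-04). Ror1 rose by 0.51 ± 0.11, 1.16 ± 0.11 and 1.03 ± 0.11 (8.18e-04, 1.33e-08 and 7.00e-08). Dact3, a partner of Dishevelled, rose by 0.68 ± 0.12, 1.12 ± 0.12 and 1.02 ± 0.12 (1.48e-04, 2.30e-07 and 9.08e-07). Tnfrsf19, a known target of the pathway, was at -1.22, -0.72 and -0.34 (9.11e-08, 5.75e-05 and 0.0381) and was lower at each age. Fst, the activin-binding follistatin, fell at ED17.5 (-1.07 ± 0.17, 7.74e-05), and the planar polarity gene Celsr3 rose at ED17.5 at 0.174 to 3.16 CPM over all libraries (1.10 ± 0.32, 0.0125).

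**Figure D5:**
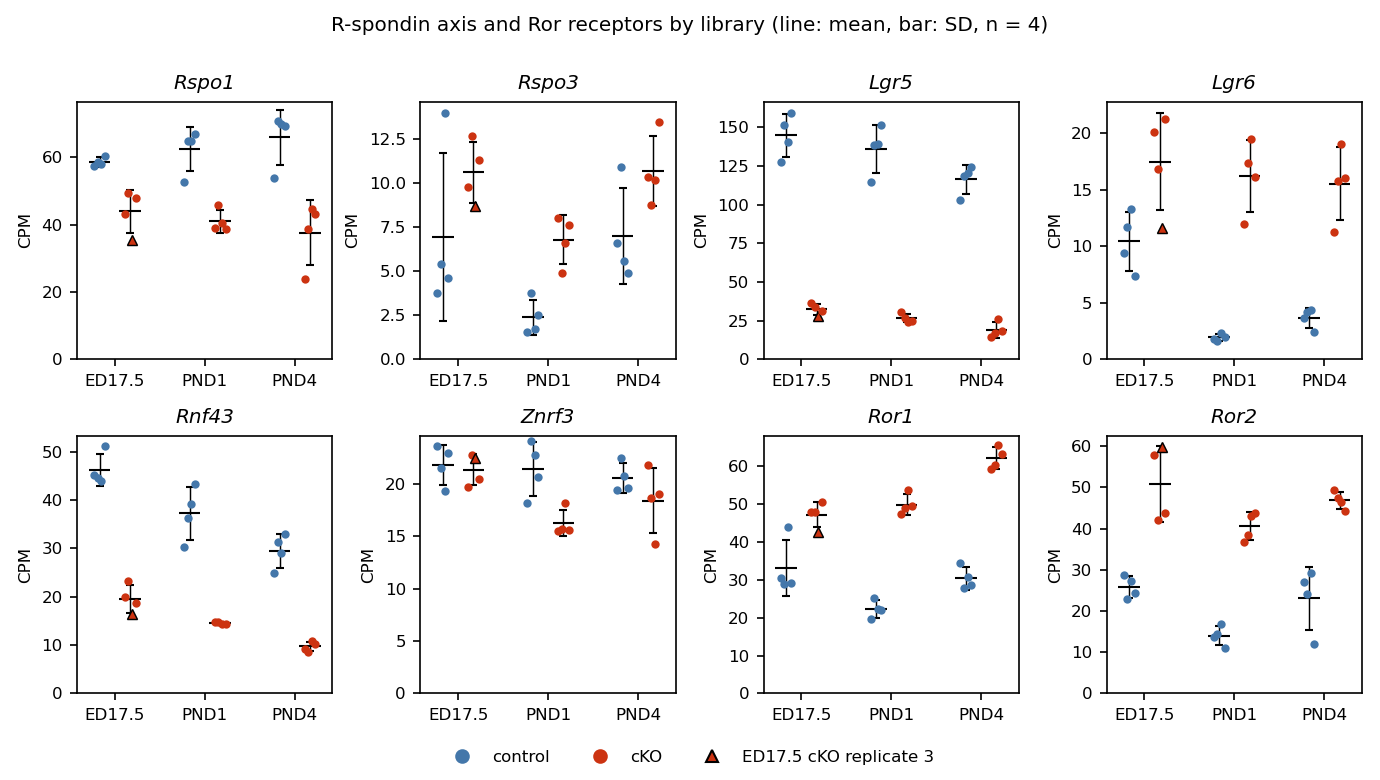
CPM of R-spondins, their receptors, the ligases they remove and the ROR receptors in each library (points; triangle: ED17.5 cKO replicate 3; line and bar: mean and SD, n = 4). Lgr5 and Rnf43 are lower and Ror2 higher in every cKO library than in any control of its age.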

How the data were processed

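RNA of pooled whole ovaries, selected for poly(A), was sequenced in 24 libraries. The authors deposited 1 table of raw counts per gene. Per the submitters' processing notes, Trimmomatic, STAR, HTSeq and DESeq2 were used with build GRCm38. Not given in the sources used here were the annotation release and the strand setting. GENCODE M21, which holds 99.38% of the gene IDs, gave exon lengths and overlaps.

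Counts were filtered with filterByExpr (minimum count 10, minimum total 15), scaled by TMM and fitted with edgeR 4.0.16 (R 4.3.3, limma 3.58.1) by robust quasi-likelihood, with 1 mean per group and Benjamini-Hochberg adjustment over 17435 genes. Dividing an absolute log2 change by the root of its F gave the SE. The fit was also run on simulated counts in which far fewer genes changed than were called here. That run cannot show how the fit behaves under so broad a change. Exact two-sided permutation p values for Nr5a1 were 0.114, 0.0286 and 0.0286 (the smallest possible). Replicate pairs differed by 3.16 to 21.7 times the counting noise (chi-square per degree of freedom), so none was merged.

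Library values are given for members called at all 3 ages, or at any age with an absolute log2 fold change of at least 1 and a mean of at least 1 CPM, and for Wnt4, Ctnnb1 and Axin2. In age contrasts up to 5 per direction are named, and other pathway genes at a log2 change of at least 1, with Rspo1, Lgr5, Rnf43 and Znrf3 always. Values of Wnt7a, Wnt9a, Wnt10a, Wif1, Fzd7, Nkd1, Nkd2, Sfrp4, Notum, Axin1, Gsk3b, Lgr4, Wnt16 and the duct markers were added after they were seen. The members and lists were chosen with earlier results of these data known. Alternatives were DESeq2 1.42.0, its size factors, no filter, separate fits, a replicate block, library numbers and single libraries left out.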

Additional observations from a re-analysis of the deposited data

Results flagged for a closer look

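In 14 of 270 groups of 4 libraries, the 6 groups of each of the 45 Wnt genes tested, 1 library lay far from the other 3 of its group, where chance alone flags about 1 in 20 groups. In ED17.5 cKO replicate 3 Wnt2b was at 44.6 CPM (60.9 to 64.0 in the other 3 cKO libraries) and Sostdc1 at 30.7 CPM (5.66 to 7.00). That library also held the Y-linked and Sertoli cell transcripts, whose part in both values was not tested. In ED17.5 cKO replicate 2 Fzd4 was at 86.1 CPM (69.6 to 70.8), Fzd7 at 64.8 CPM (78.5 to 81.1) and Notum at 13.3 CPM (6.49 to 6.64). ED17.5 cKO replicate 4 held Lrp6 at 203 CPM (222 to 225) and Nkd2 at 28.7 CPM (34.7 to 35.5). Among ED17.5 controls, Sfrp2 was at 90.7 CPM (33.5 to 41.6) and Fzd10 at 9.58 CPM (3.08 to 3.36) in replicate 3, and Wif1 at 0.819 CPM (0.599 to 0.623) in replicate 2. Axin1 was at 162 CPM in PND1 control replicate 1 (129 to 132). PND4 control replicate 3 held Wnt7a at 32.5 CPM (0.437 to 1.82) and Fzd10 at 15.9 CPM (2.66 to 3.15), and PND4 cKO replicate 1 held Wnt7a at 4.63 CPM (0.382 to 0.871).

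The genotype effect of 5 Wnt genes differed between ages by the test of the difference itself (edgeR's quasi-likelihood test, adjusted over all genes). For Dkk3 it was 0.58 more positive on the log2 scale at PND1 than at ED17.5 (adjusted p = 0.0414) and 0.66 more positive at PND4 than at ED17.5 (0.00894), and all 4 cKO libraries exceeded all 4 controls at each age. Between PND4 and ED17.5 the difference was 0.72 for Nkd2 (0.00146) and 0.51 for Fzd4 (0.0289). It was -0.60 for Axin2 (0.00473) and -0.48 for Fzd7 (0.0451). Of all genes tested, 1.86% differed between PND1 and ED17.5 and 4.77% between PND4 and ED17.5. The calls for Fzd7 and Fzd4, and that for Dkk3 at PND1, were each lost on leaving out any 1 of several libraries. The fit on libraries numbered 13 to 24 alone called none of the Wnt genes in these contrasts.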

How the results depend on the processing

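The counts of called Wnt genes, 18 at ED17.5, 24 at PND1 and 21 at PND4, stayed within 1.5 times of these values under every alternative except the fit on libraries numbered 13 to 24 alone (2 per group), which called 3, 13 and 11. That set also called 19 between control PND1 and ED17.5 (31 in the main fit), 4 between control PND4 and PND1 (21), and none for the PND1 or PND4 effect against that at ED17.5 (1 and 5). Libraries 1 to 12 alone, also 2 per group, called 20, 21 and 20 in the genotype comparisons, 25 and 17 in the control age comparisons, 4 for PND4 against ED17.5 and none for PND1 against ED17.5. ED17.5 cKO replicate 3, the library that stood apart, is among libraries 13 to 24. Other values for PND1 against ED17.5 were 3 with the ages fitted alone, 2 with sets of 6 library numbers as a covariate, 2 with DESeq2 and 2 without ED17.5 cKO replicates 1 and 3 (chosen after seeing the data). For PND4 against ED17.5 the ages fitted alone gave 3, as did leaving out those libraries. For PND4 against PND1 DESeq2 called 1 and the replicate block 1. The causes were not tested. Leaving out each library in turn gave 15 to 22 at ED17.5, 22 to 25 at PND1, 18 to 23 at PND4, 0 to 2 for PND1 against ED17.5, 0 to 1 for PND4 against PND1, 3 to 7 for PND4 against ED17.5, 26 to 32 for control PND1 against ED17.5 and 14 to 22 for control PND4 against PND1. Wnt7a between control PND4 and PND1 ranged from -0.261 without PND4 control replicate 3 to 3.34 without replicate 5.

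Same-numbered libraries deviated together with correlations of 0.0428 to 0.183 at ED17.5, -0.384 to 0.222 at PND1 and -0.0867 to 0.0218 at PND4. Libraries of unlike number gave -0.121 to 0.0541, -0.291 to 0.299 and -0.148 to 0.236. At ED17.5 all same-numbered values but the lowest lay above those of unlike number, and at PND1 and PND4 they did not. The main fit did not take the numbers as pairs, which these values do not settle for ED17.5. With the replicate block 18, 25 and 19 Wnt genes were called at ED17.5, PND1 and PND4, of which 17, 24 and 17 were calls of the fit without it. PND4 control replicate 5 and PND4 cKO replicate 1 have no partner of the same number, so the block compared 3 pairs at PND4. Changes in calls with the block at that age cannot be told apart from leaving out those libraries. Both lie in the set of library numbers 19 to 24, whose other libraries all carry replicate number 1. They were not paired by set in the block. With the sets as a covariate 22 Wnt genes were called at PND4, 21 of them calls of the main fit. At PND4 the block did not call Wnt9a (-0.43, adjusted p = 0.0557), Wnt10a (-1.26, 0.259), Wnt5b (0.21, 0.117) and Fzd1 (0.33, 0.111) and called Wnt2 (1.28, 0.0477) and Wnt7a (-3.09, 0.0484). At ED17.5 it did not call Fzd5 (-0.33, 0.0725) and called Lrp5 (0.28, 0.0257), and at PND1 it called Sostdc1 (1.65, 0.0193). The larger effect of Fzd4 at PND4 than at ED17.5 did not pass with it (0.49, 0.0539). Genes under about 1 CPM, such as Wnt2, Wnt10a and Wif1, rest on few counts, and their changes are the least certain.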
